A study of Homo sapiens with 192 samples.

Results

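Colorectal cancer (CRC) cells carry on their surface ligands that T cells, macrophages and natural killer (NK) cells read through their own receptors, and 10 genes for such ligands are described here: CD274, CD276, CD47, PVR, NECTIN2, MICA, MICB, ULBP1, ULBP2 and ULBP3. They were chosen by name, with earlier results of these data known, and are 10 of the 58243 genes in the deposited counts. RNA was sequenced from the human CRC lines LS513, LS174T, HT29 and HCT116 after growth in 2D or in 3D, with no drug or genetic change given in the labels, in 3 libraries for each of the 8 groups, or 24 libraries in all. Each line comes from 1 tumour and was grown without immune cells, HCT116 in another medium than the rest, and the labels do not say how the 3D cultures were made or whether the 3 libraries of a group were separate cultures. The p-values therefore measure the spread between libraries, which may be technical.

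CD274 encodes PD-L1, which binds PD-1 on T cells and dampens them, and CD276 encodes B7-H3, a related protein of the B7 family. CD47 binds SIRPα on macrophages and signals against being engulfed. PVR and NECTIN2 are nectin family proteins that activate NK cells through DNAM-1 (CD226) and inhibit them through TIGIT, or through PVRIG in the case of NECTIN2. MICA, MICB and the ULBP proteins resemble MHC class I molecules, are often induced on stressed or transformed cells, and bind the activating NK-cell receptor NKG2D. Interferon gamma, acting in part through IRF1, is the best known inducer of CD274, and heat shock factors are known to act on MICA and MICB.

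Several of the genes are near copies or neighbours of each other. On GRCh38 with GENCODE 29 annotation, MICA (chr6:31399784-31415315) and MICB (chr6:31494881-31511124) lie 80 kb apart on the same strand. ULBP2 (chr6:149942000-149949235), ULBP1 (chr6:149964007-149973710) and ULBP3 (chr6:150063150-150069095, minus strand) lie with RAET1E, RAET1G and RAET1L in a cluster of 186 kb on the same chromosome. PVR (chr19:44643798-44663583) and NECTIN2 (chr19:44846175-44889228) are 183 kb apart. CD274 (chr9:5450503-5470566), CD276 (chr15:73683966-73714518) and CD47 (chr3:108043094-108091862, minus strand) stand alone.

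All 10 genes matched a RefSeq promoter, taken as the bases around the start of the gene on GRCh38.p14. The stretches shown are from the genes whose pattern between lines or growth conditions is described further on, and capitals mark letters found by searching 7 motifs. For CD274 (chr9:5450320-5450435, plus strand) the capitals are GAAANNGAA, read on the opposite strand as 2 overlapping matches that begin 207 and 201 bases before the start, and TTCNNNGAA, which begins 125 bases before it.
CD274: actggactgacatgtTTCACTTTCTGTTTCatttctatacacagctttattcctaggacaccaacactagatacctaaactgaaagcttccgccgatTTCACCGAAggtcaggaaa
The first motif has the form bound by interferon regulatory factors and was in 8.11% of 34796 promoters of the same length, and the second has the form bound by STAT proteins and was in 7.67%. No other promoter of the 10 held either. MICA (chr6:31403430-31403494) and MICB (chr6:31497976-31498040) both held GAANNTTC, a form of heat shock element, 135 and 139 bases before the start, and 6.79% of all promoters did. Aligned on the motif, which is counted in, the stretches around it are identical at 58 of 65 positions (89.2%).
MICA: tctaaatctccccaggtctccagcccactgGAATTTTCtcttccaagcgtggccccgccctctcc
MICB: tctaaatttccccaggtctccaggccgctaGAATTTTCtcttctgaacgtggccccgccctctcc
ULBP2 (chr6:149941974-149942033, plus strand) and ULBP3 (chr6:150069106-150069165, minus strand) both held TGANTCA, the form bound by AP-1, across the RefSeq start, and 7.73% of all promoters held it. The match begins 2 bases before the start in ULBP2 and 6 bases before it in ULBP3. There the stretches, again aligned on the motif and with it counted in, are identical at 30 of 60 positions (50%).
ULBP2: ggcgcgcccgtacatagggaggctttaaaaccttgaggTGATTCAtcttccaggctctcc
ULBP3: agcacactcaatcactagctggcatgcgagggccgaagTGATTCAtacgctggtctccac
ACGTG was in the promoters of CD276, CD47, MICB and ULBP3 and in 21.4% of all, GCGTG was in 6 of the 10 and in 36.4% of all, and CACGTG was in none of the 10 and in 7.2% of all. Both strands were searched. A match is a run of letters and was not tested for binding, and the absence of one says only that these letters are not in this window.

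Levels are given in CPM, a gene's share of its library's reads on the usual CPM scale, with TMM scaling to even out differences in library composition. Library totals were between 18723942 and 34277421 reads, with a median of 30777613, so 3 reads, taken as the floor of detection, correspond to between 0.0875 and 0.16 CPM. This covers counting error alone. Of the 58243 genes 19387 passed the filter on low counts, among them all 10 ligand genes. The 7 epithelial and intestinal markers were detected in every group, and their summed level was between 2810 and 16900 CPM. Of 12 immune markers, CD3E and NKG7 had no read in any library and PTPRC had at most 2. The 12 together were at 2.76 to 91.9 CPM, outside HCT116 and HT29 largely from CD68. CD68 alone was at 2.08 to 91.8 CPM and was higher in 3D in all 4 lines (adjusted p 0.00416 or lower, edgeR's quasi-likelihood test). In HCT116 SIRPA alone reached 43.6 CPM and was not called (adjusted p = 0.912, edgeR). The 12 summed there to 51.0 to 57.7 CPM in 2D and 75.7 to 90.3 CPM in 3D. In HT29 part came from CD14, at 5.04 to 7.29 CPM in 2D and 10.1 to 15.1 CPM in 3D (adjusted p = 0.00721, edgeR). The 6 fibroblast and endothelial markers summed to 0.389 to 22.9 CPM, with COL1A2 at 0 throughout, and VWF, at no more than 22 reads in a library, was called higher in 3D in LS513 (adjusted p = 0.00046) and HCT116 (0.0302, both edgeR). The part of these genes in the results below was not tested. In such bulk samples, fewer cells with a transcript and less of it per cell cannot be told apart.

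**Figure D1:**
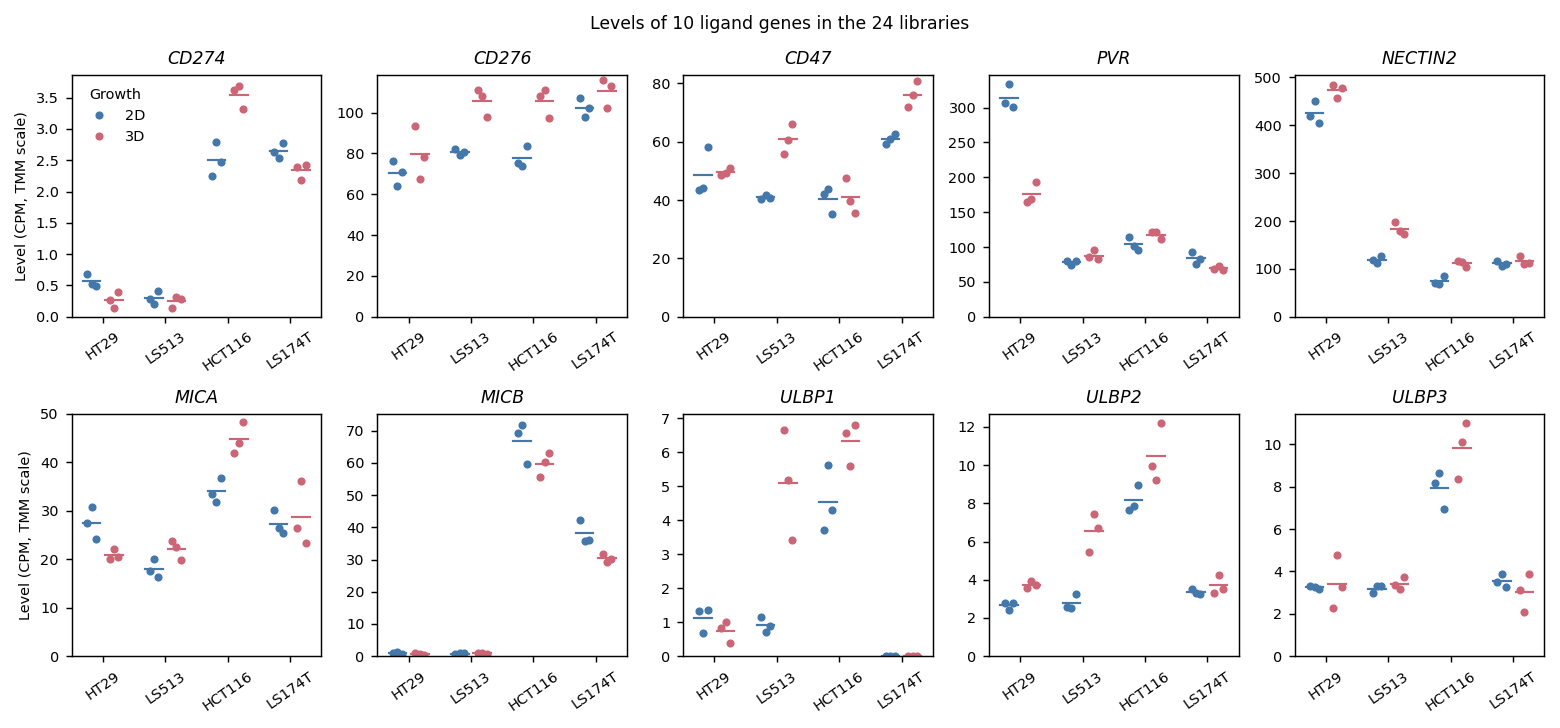
Level of each of the 10 ligand genes in CPM (vertical axis, linear, from 0, a scale of its own in each panel) in the 4 cell lines, with 1 point per library and a bar at the mean of 3 libraries, for 2D and 3D growth. MICB and CD274 are near the bottom of their panels in HT29 and LS513, PVR is lower in the 3D libraries of HT29, and ULBP1 has no point above 0 in LS174T.

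The lines differed in the level of every one of these genes. The level over both growth conditions differed between the 4 lines for all 10 genes, but so it did for 95.7% of all tested genes (edgeR's quasi-likelihood test, adjusted p under 0.05). Among the genes with reads in every line the widest range belonged to MICB: in 2D its mean was 67.0 CPM in HCT116 and 0.813 CPM in LS513, an 82.4-fold difference. The narrowest ranges in 2D were those of CD276, at 1.45-fold between the highest and the lowest line, and CD47, at 1.51-fold. HCT116 had the highest 2D mean for MICA, MICB, ULBP1, ULBP2 and ULBP3, LS174T for CD274, CD276 and CD47, and HT29 for PVR and NECTIN2. Neighbours in the order of the lines were often not separated. In 2D the libraries of LS174T and HCT116 overlapped for CD274, and those of LS513 and HCT116 for CD47. For CD276 those of HCT116 overlapped with LS513 and with HT29, which lay apart from each other. Those of HT29 and LS174T overlapped for MICA, those of HT29 and LS513 for MICB and ULBP1, and those of LS513 and LS174T for PVR and NECTIN2.

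The ligand genes called between 3D and 2D growth were in part shared by 2 lines: CD276 and NECTIN2 rose in LS513 and HCT116, ULBP2 in HT29 and LS513 and CD47 in LS513 and LS174T, and PVR fell in HT29 and LS174T. How many of all tested genes were called the same way in 2 or more lines was not counted, here or for the genes named below. In HT29, 1 gene rose (ULBP2) and 4 fell (PVR, CD274, MICA and MICB), where 21.1% of all tested genes were called higher and 19.6% lower. In LS513, 5 rose (ULBP1, ULBP2, NECTIN2, CD47 and CD276) and none fell, against 13.7% and 9.9% of all genes. In HCT116, 3 rose (NECTIN2, CD276 and MICA) and none fell, against 16.8% and 12.3%. In LS174T, where 9 of the 10 had reads, 1 rose (CD47) and 1 fell (PVR), against 13.1% and 9.15%. The median log2 fold change of the ligand genes was -0.18 for HT29 and 0.07 for LS174T, and 0.34 and 0.38 for LS513 and HCT116, beside medians between 0.00 and 0.02 over all tested genes. ULBP3 was called in no line. All of these calls come from edgeR's quasi-likelihood test of all 24 libraries, with Benjamini-Hochberg adjustment over the 19387 genes. The growth effect itself differed between lines for 7 of the 10 genes by an interaction test in the same fit (17.1% of all genes), the exceptions being CD276 (adjusted p = 0.232), MICB (0.334) and ULBP3 (0.565).

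**Figure D2:**
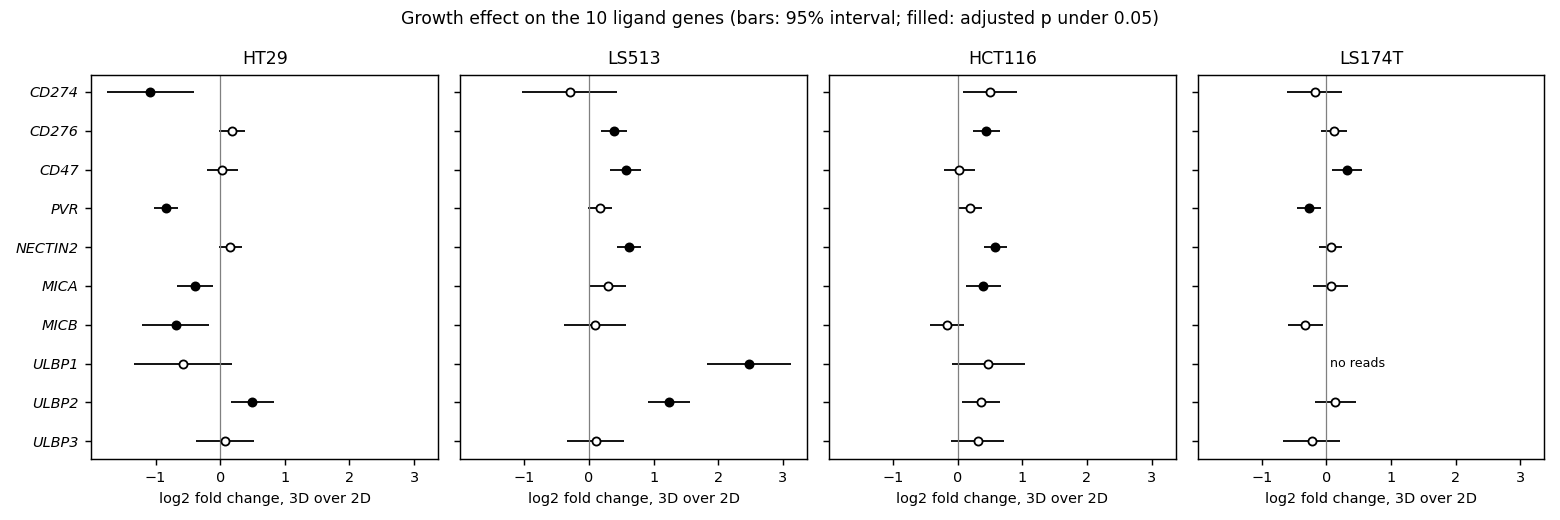
Log2 fold change of 3D over 2D (horizontal axis) for the 10 ligand genes in each line, with 95% intervals as bars; filled points passed an adjusted p of 0.05 in edgeR's quasi-likelihood test. Filled points lie left of 0 for PVR, CD274, MICA and MICB in HT29, and right of 0 for 5 genes in LS513, with ULBP1 farthest at 2.48.

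CD274 was the weakest of the detected genes per length of transcript in every group, and was near the floor in HT29 and LS513. In HT29 its level was 0.686, 0.516 and 0.493 CPM in the 2D libraries (20, 15 and 9 reads) and 0.271, 0.138 and 0.399 CPM in the 3D libraries (9, 4 and 11 reads). Each 3D library was below each 2D library. CD274 fell by 1.08 on the log2 scale in HT29 (SE 0.323, adjusted p = 0.0102, edgeR), from few reads. Without 2D replicate 1 the adjusted p was 0.0933, and without 3D replicate 3 it was 0.105. In LS513 the levels were 0.29, 0.211 and 0.412 CPM in 2D and 0.141, 0.32 and 0.277 CPM in 3D, which overlap (log2 fold change -0.30, 95% interval -1.03 to 0.436, edgeR).

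In HCT116 and LS174T CD274 was at several times those levels. In HCT116 it was at 2.24, 2.79 and 2.47 CPM in 2D and at 3.62, 3.69 and 3.31 CPM in 3D. The groups did not overlap, yet the difference of 0.50 (SE 0.203, 95% interval 0.0814 to 0.923) had an adjusted p of 0.0666 by edgeR, and of 0.0277 by the Wald test of DESeq2. In LS174T it was at 2.63, 2.53 and 2.78 CPM in 2D and at 2.39, 2.19 and 2.43 CPM in 3D, a difference of -0.18 (95% interval -0.607 to 0.247, edgeR adjusted p = 0.567). In 3D the HCT116 mean was 14.4 times that of LS513, while in 2D HCT116 and LS174T overlapped. The growth effect on CD274 differed between lines (adjusted p = 0.0249, edgeR), but not past the threshold when any 1 of 7 libraries was left out: 2D replicate 1 or 3D replicates 1 or 3 of HT29, or 2D replicates 1 or 3 or 3D replicates 1 or 2 of HCT116 (adjusted p 0.0602 to 0.0966). The genes whose levels over the 8 groups were most like those of CD274 were OR51B4 (Pearson's r 0.990), LINP1 (0.989) and CFAP20DC (0.989), out of 16626 genes compared.

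Among genes that act upstream of CD274, the transcription factor gene IRF1 rose in HCT116 from 20.4 ± 2.41 to 38.9 ± 5.95 CPM (SD, n = 3; log2 fold change 0.93, adjusted p = 1.08e-05, edgeR) and was not called in the other lines (adjusted p 0.181 in HT29, 0.376 in LS513 and 0.438 in LS174T, edgeR). The receptor subunit gene IFNGR2 rose in all 4 lines, by 0.31 to 0.87 on the log2 scale (largest adjusted p 0.0302, edgeR). MYC rose in LS174T from 216.0 ± 6.06 to 347.0 ± 79.5 CPM (adjusted p = 0.000971, edgeR). IFNGR1 and ATF4 rose in LS513, HCT116 and LS174T, RELA in LS513 and HCT116, STAT3 in HCT116 and HSF1 in LS174T. HIF1A and NFKB1 fell in HT29, HCT116 and LS174T, by 0.39 to 0.72 and by 0.27 to 0.45 on the log2 scale (largest adjusted p 0.0447, edgeR), and JAK2 fell in HCT116 (-0.86, adjusted p = 0.00875) and LS174T (-0.64, adjusted p = 0.0464, both edgeR).

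Of 8 genes for enzymes and partners that act on the PD-L1 protein, 2 rose and 1 fell in HT29 and 1 rose in LS513. In HCT116 1 rose and 1 fell, and in LS174T 2 fell. The medians were 0.17, 0.00, -0.05 and -0.11 in the same order of lines. Over all tested genes 21.1% rose and 19.6% fell in HT29, and 13.7% and 9.9% in LS513. The shares were 16.8% and 12.3% in HCT116, and 13.1% and 9.15% in LS174T. B3GNT3, which glycosylates PD-L1, was called in all 4 lines: it rose in HCT116 (20.0 ± 0.816 to 33.0 ± 2.11 CPM, SD, n = 3; adjusted p = 4.05e-07), in LS513 (adjusted p = 0.0184) and in HT29 (0.025), and fell in LS174T (71.5 ± 5.53 to 52.1 ± 0.28 CPM; adjusted p = 0.000182, all edgeR). ZDHHC3, a palmitoyltransferase, rose in HT29 (0.22, adjusted p = 0.00912, edgeR). CMTM6, which keeps PD-L1 from degradation, fell by 0.40 in LS174T (adjusted p = 0.0421, edgeR).

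CD276 rose in LS513 and HCT116 by similar amounts, and its growth effect was not shown to differ between lines. In LS513 its level was 82.1, 79.3 and 80.6 CPM in 2D and 111, 108 and 98.0 CPM in 3D. In HCT116 it was 75.3, 73.9 and 83.8 CPM in 2D and 108, 111 and 97.5 CPM in 3D. In both lines every 3D library was above every 2D library, by 0.39 (SE 0.0995, adjusted p = 0.00593) and 0.44 (SE 0.0995, adjusted p = 0.00187, both edgeR) on the log2 scale. In HT29 the levels were 76.2, 64.2 and 70.9 CPM in 2D and 93.4, 67.6 and 78.4 CPM in 3D, and in LS174T 107, 97.9 and 102 against 116, 102 and 113 CPM. Both pairs of groups overlapped (95% intervals -0.0272 to 0.386 and -0.0887 to 0.321). Without 3D replicate 3, the lowest 3D library, the difference in HT29 was 0.33 (adjusted p = 0.0142, edgeR).

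CD47 rose in LS513, where its level went from 40.5, 41.8 and 40.7 CPM in the 2D libraries to 55.7, 60.4 and 66.2 CPM in the 3D libraries. The 2 groups lay well apart (log2 fold change 0.57, SE 0.115, adjusted p = 0.000884, edgeR). LS174T had the highest level of the 4 lines, at 59.3, 60.9 and 62.6 CPM in 2D and 71.7, 75.8 and 80.7 CPM in 3D. That rise of 0.32 (SE 0.114) stood just past the threshold (adjusted p = 0.0463, edgeR) and was lost when any 1 of the 6 LS174T libraries was left out (adjusted p 0.0536 to 0.124), or HCT116 2D replicate 1 or any 2D library of LS513 (0.054 to 0.0574).

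In HT29 and HCT116 CD47 showed no difference larger than the spread. The HT29 libraries were at 43.3, 44.1 and 58.1 CPM in 2D and 48.6, 49.2 and 50.8 CPM in 3D (95% interval of the difference -0.206 to 0.27). Those of HCT116 were at 42.0, 43.8 and 35.1 CPM and at 47.7, 39.8 and 35.4 CPM (-0.215 to 0.261). The growth effect differed between lines at an adjusted p of 0.0447 by edgeR, and leaving out 1 library raised it above 0.05 in 15 cases, up to 0.103 without LS513 3D replicate 3: any library of LS513 except 3D replicate 1, any 3D library of HT29, 2D replicates 1 or 2 or 3D replicates 2 or 3 of HCT116, or any 2D library of LS174T. The genes most like CD47 over the 8 groups were SNAI3-AS1 (Pearson's r 0.972), LRRD1 (0.956) and CYP51A1 (0.953), the last an enzyme of cholesterol synthesis.

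Of 6 genes for phagocytosis signals and CD47 modifiers, LRP1, known as a receptor for the pro-phagocytic signal calreticulin, rose in all 4 lines. The lines were grown without immune cells, and a part of their LRP1 in phagocytosis was not tested. Its mean went from 43.1 ± 3.15 to 129.0 ± 31.0 CPM in LS513 (SD, n = 3; adjusted p = 1.11e-05, edgeR), and it rose by 0.67 to 1.58 on the log2 scale over the lines (largest adjusted p 0.0143, edgeR). QPCT, which modifies the N terminus of secreted proteins, rose in HT29 from 55.7 ± 6.93 to 111.0 ± 5.21 CPM (adjusted p = 0.000197, edgeR) and had at most 4 reads per library in the other lines. QPCTL, of the same list, rose in HCT116 (0.33, adjusted p = 0.037) and LS174T (0.35, adjusted p = 0.0333, both edgeR). It was not called in HT29 (adjusted p = 0.369) or LS513 (0.0639, both edgeR). In all, 3 of the 6 rose in LS513, 2 of the 6 in HT29 and in HCT116, and 2 of the 5 tested in LS174T, and none fell. Over all tested genes 13.7% rose in LS513, 21.1% in HT29, 16.8% in HCT116 and 13.1% in LS174T. CALR, the calreticulin gene, was not called in any line.

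PVR and NECTIN2 had the highest levels of the 10 genes per kb of exon in HT29 and LS513 and in LS174T in 2D, while in LS174T in 3D PVR was level with CD276 (both 19.9 CPM per kb). The PVR level in HT29 was 306, 334 and 301 CPM in 2D and 165, 169 and 193 CPM in 3D. The 3D libraries were all far below the 2D libraries, a fall of 0.84 on the log2 scale (SE 0.0894, adjusted p = 2.42e-07, edgeR), or a fold of 0.56. No library decided this call (adjusted p between 1.37e-06 and 1.34e-05 with each HT29 library left out). HT29 in 2D stood 4.01-fold above LS513, the line with the lowest PVR mean in 2D.

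In the other lines PVR moved less. In LS174T it was at 93.5, 76.4 and 83.1 CPM in 2D and 68.8, 73.5 and 67.7 CPM in 3D, with no overlap and a fall of 0.27 (SE 0.0898, adjusted p = 0.0348, edgeR). Leaving out any 1 LS174T library except 2D replicate 2 took the adjusted p to between 0.0552 and 0.185, and leaving out LS513 3D replicate 1 or HT29 2D replicate 1 took it to 0.0509 and 0.0516. In LS513 the levels were 79.8, 74.8 and 80.4 CPM in 2D and 85.4, 95.3 and 82.5 CPM in 3D, and in HCT116 114, 102 and 95.9 against 121, 121 and 112 CPM. The LS513 groups did not overlap and the HCT116 groups did, and neither difference was called (0.16, adjusted p = 0.204, and 0.19, adjusted p = 0.125, edgeR). The growth effect on PVR differed between lines (adjusted p = 6.24e-06, edgeR). The genes most like PVR over the 8 groups were LHX1 (Pearson's r 0.990), CEACAM19 (0.988) and SOAT2 (0.983), of which CEACAM19 shares 121 exonic bases with PVR on the same strand, so that some reads may not be assignable between them.

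NECTIN2 rose in LS513 and HCT116. In LS513 it was at 119, 112 and 128 CPM in 2D and 199, 180 and 172 CPM in 3D, and in HCT116 at 71.5, 68.0 and 84.7 CPM against 116, 115 and 105 CPM. No 2D library reached the lowest 3D library in either line, and the folds were 1.54 (log2 0.62, SE 0.0874, adjusted p = 1.71e-05) and 1.5 (log2 0.58, SE 0.0878, adjusted p = 3.46e-05, both edgeR). HT29 had the highest level, at 420, 450 and 404 CPM in 2D and 485, 456 and 478 CPM in 3D, and here the groups did not overlap but the difference of 0.16 was not called (95% interval -0.024 to 0.334, adjusted p = 0.16, edgeR). In LS174T the libraries were at 116, 107 and 111 CPM and 127, 111 and 113 CPM (0.07, adjusted p = 0.62, edgeR). The growth effect differed between lines (adjusted p = 0.00229, edgeR), with a range of 0.0015 to 0.0122 over the fits without 1 library.

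**Figure D3:**
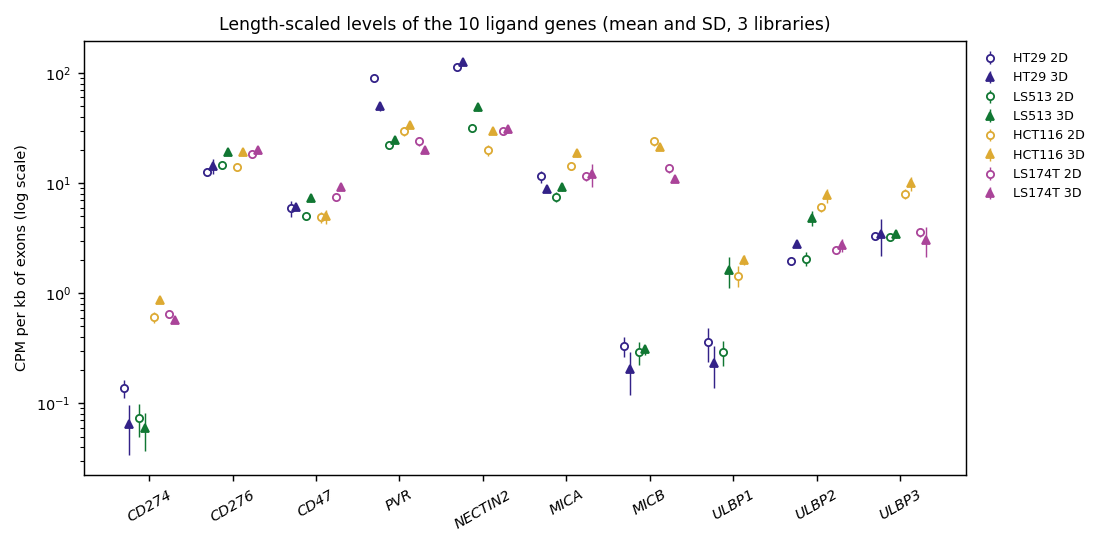
Level per kb of exon (CPM per kb, log axis) of the 10 ligand genes in the 8 groups, as mean and SD of 3 libraries; open circles are 2D and filled triangles 3D, and groups without reads are left out. NECTIN2 is highest in HT29, at 113 in 2D and 126 in 3D, and CD274 is at 0.862 or below in every group.

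Since both proteins bind DNAM-1 and TIGIT, their balance was also described, per kb of exon and without a test. In HT29 NECTIN2 was at 1.27 ± 0.0165 times PVR in 2D and 2.54 ± 0.219 times in 3D (SD, n = 3). In LS513 the ratio was 1.43 ± 0.0497 and 1.97 ± 0.211, in HCT116 0.683 ± 0.128 and 0.891 ± 0.00923, and in LS174T 1.24 ± 0.0772 and 1.57 ± 0.157. The 3D libraries had the higher ratio in each line with no overlap, and HCT116 alone had less NECTIN2 than PVR in both conditions. How often other pairs of genes separate in this way was not examined. PVR by itself was not called in LS513 or HCT116, nor NECTIN2 in HT29 or LS174T.

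NECTIN4, a related adhesion molecule that also binds TIGIT, rose in all 4 lines, most in HCT116 (0.885 ± 0.17 to 7.18 ± 1.68 CPM, SD, n = 3; log2 fold change 3.02, adjusted p = 1.65e-11, edgeR). In HT29 it went from 15.2 ± 0.233 to 37.8 ± 1.48 CPM and in LS513 from 28.8 ± 2.07 to 59.3 ± 1.3 CPM, while LS174T changed by 0.42 (adjusted p = 0.0377, edgeR). Of the 4 other nectin and nectin-like genes tested, NECTIN4 included, 2 rose and 1 fell in HT29 and in HCT116, 1 rose and 1 fell in LS513, and 1 rose in LS174T. Over all tested genes 21.1% rose and 19.6% fell in HT29, and 16.8% and 12.3% in HCT116. The shares were 13.7% and 9.9% in LS513, and 13.1% and 9.15% in LS174T. CADM4 rose in HT29 and HCT116, NECTIN3 fell in HT29 and LS513, and NECTIN1 fell in HCT116.

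MICA was expressed in all 4 lines and moved in opposite directions in HT29 and HCT116. In HT29 its level was 27.4, 30.8 and 24.2 CPM in 2D and 20.1, 22.1 and 20.5 CPM in 3D. In HCT116 it was 33.4, 31.9 and 36.7 CPM in 2D and 41.9, 44.0 and 48.4 CPM in 3D. The groups did not overlap in either line, and MICA fell by 0.40 in HT29 (SE 0.134, adjusted p = 0.0214) and rose by 0.40 in HCT116 (SE 0.131, adjusted p = 0.0258, both edgeR). Both calls were near the threshold: the first was lost without any 1 HT29 library except 2D replicate 3 (adjusted p 0.053 to 0.166), and the second without 2D replicates 1 or 2 or 3D replicates 2 or 3 of HCT116 (0.0661 to 0.111).

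In LS513 MICA was at 17.6, 20.1 and 16.3 CPM in 2D and 23.7, 22.5 and 19.9 CPM in 3D (95% interval 0.0111 to 0.568, adjusted p = 0.127, edgeR). In LS174T it was at 30.2, 26.4 and 25.4 CPM and at 26.5, 36.1 and 23.4 CPM, with overlap (-0.209 to 0.339). The growth effect on MICA differed between lines (adjusted p = 0.0158, edgeR), and without 2D replicates 1 or 2 or 3D replicates 1 or 4 of HT29 the adjusted p was 0.0598 to 0.0937. The genes most like MICA over the 8 groups were PDE9A (Pearson's r 0.965), ENSG00000273654 (0.955) and CMTM7 (0.948). MICA shares 62 exonic bases with HCP5 on the same strand.

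MICB, whose promoter stretch above is nearly that of MICA, was on at high level in HCT116 and LS174T and close to the floor in HT29 and LS513. In HCT116 it was at 69.4, 71.7 and 59.8 CPM in 2D and 55.7, 60.2 and 63.1 CPM in 3D, and in LS174T at 42.4, 35.7 and 36.2 CPM and 31.7, 29.2 and 30.1 CPM. The groups overlapped in HCT116 and not in LS174T, where the difference of -0.33 (SE 0.131, 95% interval -0.598 to -0.057) was not called by edgeR (adjusted p = 0.074) and was by the Wald test of DESeq2 (adjusted p = 0.0186). In LS513 MICB was at 0.611, 0.846 and 0.982 CPM in 2D and 0.916, 0.924 and 0.762 CPM in 3D.

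In HT29 MICB was at 0.892, 1.14 and 0.767 CPM in 2D (26, 33 and 14 reads) and at 0.814, 0.588 and 0.326 CPM in 3D (27, 17 and 9 reads), and the groups overlapped. The fall of 0.69 (SE 0.251, adjusted p = 0.032, edgeR) was lost without 2D replicates 1 or 2 or 3D replicates 3 or 4 of HT29 (adjusted p 0.0736 to 0.262), and without HCT116 3D replicate 2 or LS513 3D replicates 1 or 2 (0.0505 to 0.0513). The difference between lines was far larger: in 3D the HCT116 mean was 104 times the HT29 mean. No window of 75 bases, the full read length, was shared between MICA or MICB and another gene. Trimmed reads could be shorter, and of windows of 41 bases, the shortest kept, 6.8% of those of MICA and 6.55% of those of MICB were shared, in part with each other.

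ULBP1 rose most of the 10 genes, in LS513, from 1.16, 0.695 and 0.887 CPM in 2D (36, 23 and 28 reads) to 6.66, 5.19 and 3.43 CPM in 3D (189, 146 and 99 reads). Every 3D library was far above every 2D library, and the fold was 5.57 (log2 2.48, SE 0.31, adjusted p = 1.03e-05, edgeR). In HT29 ULBP1 was at 1.34, 0.688 and 1.37 CPM in 2D and 0.814, 1.0 and 0.399 CPM in 3D, and in HCT116 at 3.72, 5.61 and 4.3 CPM and 6.58, 5.59 and 6.79 CPM. Both pairs overlapped (95% intervals -1.34 to 0.176 and -0.0854 to 1.04). In LS174T no library had a read, which the floor of 3 reads limits to at most 0.102 CPM before scaling. The growth effect differed between lines (adjusted p = 0.000688, edgeR).

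ULBP2 rose in LS513 and HT29. In LS513 it went from 2.57, 2.51 and 3.23 CPM to 5.46, 7.46 and 6.69 CPM, a fold of 2.36 (log2 1.24, SE 0.155, adjusted p = 3.35e-06, edgeR), and in HT29 from 2.78, 2.41 and 2.79 CPM to 3.59, 3.91 and 3.74 CPM (0.50, SE 0.162, adjusted p = 0.0174, edgeR; 0.0584 without 2D replicate 2). No library of one condition lay within the other in either line. HCT116 had the highest levels, 7.64, 7.85 and 8.98 CPM in 2D and 9.94, 9.25 and 12.2 CPM in 3D, also without overlap, but the difference of 0.36 was not called by edgeR (SE 0.143, adjusted p = 0.0622) and was by DESeq2 (adjusted p = 0.037). In LS174T the levels were 3.53, 3.33 and 3.23 CPM and 3.31, 4.27 and 3.53 CPM. The growth effect differed between lines (adjusted p = 0.00382, edgeR). Of the ULBP2 transcript, 20.5% of 75-base windows and 37.7% of 41-base windows also occur in another gene, RAET1L and RAET1G among them, and since reads that aligned more than once were removed, those stretches do not count toward ULBP2.

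ULBP3, which shares the AP-1 form letters of ULBP2 at its start, was called in no line. It was at 3.29, 3.27 and 3.18 CPM in HT29 2D and 2.26, 4.77 and 3.26 CPM in HT29 3D. In LS513 it was at 2.96, 3.32 and 3.29 CPM and 3.38, 3.16 and 3.74 CPM, and in LS174T at 3.5, 3.9 and 3.26 CPM and 3.1, 2.08 and 3.87 CPM. HCT116 again had the highest level, 8.19, 8.63 and 6.96 CPM against 8.35, 10.1 and 11.0 CPM. The conditions overlapped in every line, and the widest interval upward was that of HCT116, -0.0999 to 0.715 on the log2 scale. The 3 other lines overlapped with each other in 2D for ULBP3, whereas for ULBP2 the libraries of LS513 overlapped with those of HT29 and with those of LS174T, which lay apart from each other.

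**Figure D4:**
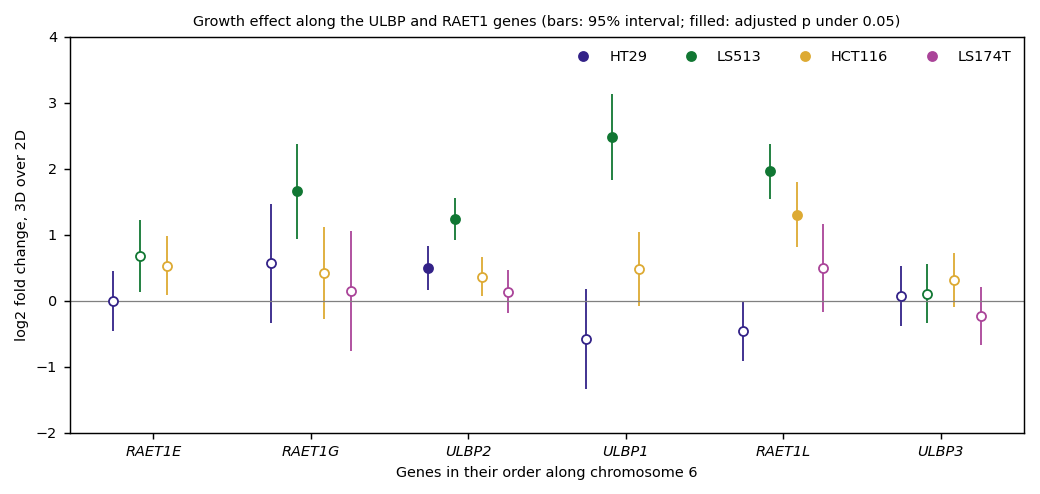
Log2 fold change of 3D over 2D (vertical axis) for the 6 ULBP and RAET1 genes in their order along chromosome 6, with 95% intervals as bars and the 4 lines in colour; filled points passed an adjusted p of 0.05, and ULBP1 and RAET1E in LS174T are left out since they had no or nearly no reads. LS513 has filled points for RAET1G, ULBP2, ULBP1 and RAET1L, and an open point at 0.10 for ULBP3 at the end of the row.

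Of the 3 other NKG2D ligand genes in the cluster, 2 rose in LS513 as well, where 13.7% of all tested genes rose. RAET1L went from 2.94 ± 0.377 to 11.5 ± 2.32 CPM there (SD, n = 3; log2 fold change 1.96, adjusted p = 2.93e-07), and RAET1G from 0.326 ± 0.11 to 1.03 ± 0.204 CPM (1.66, adjusted p = 0.00134, both edgeR). RAET1L also rose in HCT116, from 0.898 ± 0.267 to 2.21 ± 0.391 CPM (1.30, adjusted p = 0.000293, edgeR). RAET1E was called lower in LS174T (adjusted p = 0.00552, edgeR), where it had 3 to 10 reads per library in 2D and at most 1 in 3D. These genes share 75-base windows with other genes too: 19.6% for RAET1L, 10.1% for RAET1G and 31.9% for RAET1E. With 41-base windows the shares are 37.7%, 21.9% and 35.6%.

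Proteases are known to release MICA, MICB and ULBP proteins from the cell surface. In HT29 4 of 6 tested genes of this list fell, ADAM9 (301.0 ± 39.1 to 151.0 ± 26.7 CPM, SD, n = 3; adjusted p = 1.72e-05), ADAM17 (adjusted p = 0.0141), ADAM10 (0.0276) and PDIA6, a disulfide isomerase (0.0312, all edgeR), and MMP14 rose from 3.93 ± 0.906 to 7.81 ± 1.24 CPM (adjusted p = 0.000125, edgeR). In LS513 MMP14 rose and none of 5 fell, in HCT116 MMP14 (11.5 ± 1.41 to 20.8 ± 2.92 CPM) and PDIA6 rose, and in LS174T none of 6 was called. Over all tested genes 21.1% rose and 19.6% fell in HT29, and 13.7% and 9.9% in LS513. The shares were 16.8% and 12.3% in HCT116, and 13.1% and 9.15% in LS174T.

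Among other ligands of NK and T cells, HLA-E, which presents peptides to the inhibitory receptor NKG2A, rose in all 4 lines: from 80.5 ± 2.81 to 151.0 ± 15.3 CPM in HT29, at 265.0 ± 12.1 and 373.0 ± 56.4 CPM in the 2D and 3D libraries of LS513, at 99.8 ± 12.8 and 238.0 ± 30.9 CPM in those of HCT116, and at 97.0 ± 3.15 and 152.0 ± 32.7 CPM in those of LS174T (SD, n = 3; largest adjusted p 0.00745, edgeR). NCR3LG1, the gene of the NKp30 ligand B7-H6, fell in HT29, LS513 and LS174T, by 0.91 to 1.18 on the log2 scale (largest adjusted p 0.0282, edgeR). CD58, which binds CD2 on T and NK cells, rose in LS513 (13.0 ± 2.07 to 19.4 ± 1.59 CPM; adjusted p = 0.00137, edgeR). Of 6 tested genes of this list, 2 rose and 1 fell in HT29 and in LS513, 2 and none in HCT116, and 1 and 1 in LS174T. Over all tested genes 21.1% rose and 19.6% fell in HT29, and 13.7% and 9.9% in LS513. The shares were 16.8% and 12.3% in HCT116, and 13.1% and 9.15% in LS174T.

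Among 17 further co-inhibitory and co-stimulatory ligand genes, 10 or 11 were tested per line. The number that rose was 6 for LS174T, 5 for HCT116, 4 for LS513 and 3 for HT29. Over all tested genes 13.1% rose in LS174T, 16.8% in HCT116, 13.7% in LS513 and 21.1% in HT29. ICOSLG, which fell in HCT116, was the only one of the 17 called lower. HHLA2, a B7 family gene, rose in HT29 (10.2 ± 1.61 to 35.8 ± 2.95 CPM, SD, n = 3; adjusted p = 1.16e-08), LS513 (3.32 ± 0.452 to 20.5 ± 1.67 CPM; 4.73e-10) and LS174T (10.8 ± 1.02 to 19.3 ± 2.27 CPM; 0.000318, all edgeR), and had at most 1 read per library in HCT116. LGALS9, which encodes galectin-9, rose in HCT116 from 0.52 ± 0.173 to 8.5 ± 4.56 CPM (adjusted p = 3.7e-08) and in HT29 (adjusted p = 7.96e-05, both edgeR). Several genes of this list were at or under the floor, so no median is given for it. PDCD1LG2, the gene of the other PD-1 ligand, and CD80 and CD86 were among them in all 4 lines.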

How the data were processed

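For every technical replicate the authors deposited the raw counts of each gene. Reads were trimmed, aligned with STAR, freed of reads that aligned more than once and counted on exons with HTSeq, with no normalization. The submitters' processing notes name hg19 and the paper's methods name Ensembl 91, whose human annotation is on GRCh38, so the build of the alignment is not settled. Coordinates and overlaps printed here come from GENCODE 29 on GRCh38. Libraries were stranded and selected for poly(A) tails.

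Counts of the technical replicates were summed by library: 191 of 192 were used, and 1 of HT29 grown in 3D was not analysed here. Cell line, growth and replicate number came from the labels, and the 3D replicates of HT29 are numbered 1, 3 and 4. Each gene was matched by Ensembl identifier, the identifier with most counts being used where a symbol had several. These sums went into edgeR 4.0.16 (R 4.3.3): filterByExpr, TMM, and the robust quasi-likelihood test, with the 24 libraries in 1 model and 1 coefficient per group. Tests were two-sided, Benjamini-Hochberg adjustment was over 19387 genes, and a call is an adjusted p under 0.05. Alternatives were the size factors of DESeq2, its 1.42.0 tests, other filters, cutoffs and sets of libraries, and a replicate block. Likeness between genes is Pearson's r of log2 CPM with a pseudocount of 0.5 over 8 group means, for genes with at least 1 CPM in a group.

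The genes described, the gene lists and the motifs were chosen with earlier results of these data known. Beside the 10 ligand genes, the text names from each list the called gene of smallest p in each line, the 3 genes most like CD274, CD47, MICA and PVR, and list members a result turns on. IFNGR2, HIF1A, NFKB1, JAK2, VWF, CMTM6, NCR3LG1, CALR, ICOSLG, PDCD1LG2, CD80, CD86 and the other genes named for their calls outside that rule were chosen after their values were seen. From the list of transcriptional regulators, 1 gene and the counts over that list are not reported here. On counts simulated for HT29 with 19100 genes, edgeR called 90 of 100 genes changed 2-fold and 99 of 100 changed 4-fold, with 10 false calls. The 200 changed genes were drawn from those above 1 CPM in HT29. These rates therefore do not cover CD274, MICB or ULBP1 in that line, nor data in which many more genes change.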

Additional observations from a re-analysis of the deposited data

Results flagged for a closer look

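For 7 of the 10 ligand genes the effect of 3D growth differed between the 4 lines in an interaction test of the edgeR fit: PVR (adjusted p = 6.24e-06), ULBP1 (0.000688), NECTIN2 (0.00229), ULBP2 (0.00382), MICA (0.0158), CD274 (0.0249) and CD47 (0.0447). PVR fell in HT29 and LS174T, at -0.84 and -0.27 on the log2 scale, and was at 0.16 in LS513 and 0.19 in HCT116. MICA fell in HT29 and rose in HCT116, and CD274 fell in HT29 while its 3D libraries were the higher ones in HCT116. ULBP1 and ULBP2 had their largest values in LS513, at 2.48 and 1.24, NECTIN2 had its largest in LS513 and HCT116, and CD47 was called in LS513 and LS174T. ULBP1 had no reads in LS174T, so that line adds nothing to its test.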

How the results depend on the processing

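With the size factors of DESeq2 no count of called ligand genes moved. The study's cutoffs are a log2 fold change below -0.5 or above 1.5, so a rise had to be larger than a fall to count. They were applied here with an adjusted p under 0.05, where the paper names only p < 0.05. Ligand genes higher in 3D in HT29 (1 as reported) numbered 0 with all genes of at least 1 count, 0 with the replicate block, 0 at the study's cutoffs and 0 at an adjusted p under 0.01, and 0 to 2 without 1 library. Those lower in HT29 (4) numbered 2 with all genes, 2 with only the line's libraries, 2 with the replicate block and 1 at 0.01, and 1 to 4 without 1 library. In LS513 the 5 higher became 1 at the study's cutoffs and were 5 without any 1 library, and in HCT116 the 3 higher became 0 at those cutoffs, 5 with DESeq2 and 2 to 3 without 1 library. In LS174T the 1 higher became 0 with all genes, only the line's libraries, the replicate block, the study's cutoffs, 0.01, and without any 1 library (0 to 0). The 1 lower there became 0 under the same settings, 2 with DESeq2, and 0 to 1 without 1 library. The 7 genes whose growth effect differed between lines became 4 with the replicate block and 4 to 7 without 1 library, and 5 with all genes. All 10 differed between lines under every setting run.

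The replicate block ended the calls of MICA (adjusted p = 0.197), MICB (0.642) and ULBP2 (0.145) in HT29 and of CD47 (0.053) and PVR (0.0751) in LS174T by edgeR, and no other call within a line, and took CD274 (0.054), CD47 (0.068) and MICA (0.147) out of the genes whose effect differed between lines. Equal numbers did not pair the libraries: over 11 same-numbered pairs r was between -0.196 and 0.174, with 2 above 0.1. Uncalled values changed sign for CD47 in HT29 with the replicate block (-0.037), CD47 in HCT116 with all genes (-0.0093), and, without 1 library, ULBP3 in HT29 (-0.19 to 0.34), MICB in LS513 (-0.074 to 0.25), CD47 in HCT116 (-0.12 to 0.094) and MICA in LS174T (-0.12 to 0.19). The cause was not tested, beyond the fewer libraries or the 36442 genes tested. Of 702 values refitted without a library of another line, 9 lost their call. Depth limits CD274 and MICB in HT29 and LS513, at 4 to 33 reads per library in HT29.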
